A study of Mus musculus with 6 samples.

Results

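The metabotropic glutamate receptors Grm2 to Grm8 are 7 genes, of 25544 annotated genes that held at least 1 measured site by the same rule. Their members were all cytosines lying between 1 kb upstream of the gene start and the gene end, read along the strand of the gene. By this rule 281 of 890041 sites belonged to them, and all 281 were CpGs. A site was counted as promoter when it lay within 1 kb of the start of any annotated transcript of its gene (154 sites) and as gene body otherwise (127 sites). DNA methylation, the percent of reads at a cytosine that were methylated, had been measured by reduced representation bisulfite sequencing (RRBS), which cuts DNA at CCGG and so reads CpG-rich sequence preferentially. The tissue was dentate gyrus dissected out of the hippocampus. Mice were C57BL/6JRj females at 4.5 months of age. Of these, 3 mice had lived in standard housing cages (STD) and 3 in an enriched environment (ENR), a large enclosure with tunnels and toys that holds more mice than a standard cage. Each library came from a separate mouse. The labels do not say which mice shared a cage, so housing and cage cannot be told apart. Dentate gyrus tissue is a mixture of granule neurons, interneurons and glia, and a shift in the share of a cell type and a shift in methylation within cells cannot be told apart in bulk DNA.

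Metabotropic glutamate receptors are G protein-coupled receptors that tune synaptic transmission instead of opening an ion channel. Group I receptors such as Grm5 couple to Gq and phospholipase C and sit mostly beside the postsynaptic density. Group II (Grm2, Grm3) and group III receptors (Grm4, Grm6, Grm7, Grm8) couple to inhibitory Gi/o proteins and mostly dampen transmitter release from presynaptic terminals. In mammalian genes, CpG-rich promoters are usually unmethylated and CpGs inside transcribed genes usually methylated. CpG-poor stretches of low methylation away from promoters often mark distal regulatory elements.

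The 7 genes were covered unevenly. Grm4 had 78 sites, Grm8 71, Grm7 45, Grm5 39, Grm6 23, Grm2 21 and Grm3 4. Between 0.318% (Grm3) and 7.14% (Grm6) of the reference CpGs in a gene region were measured. Grm3 and Grm5 had no measured promoter site. Within 1 kb of the gene start the reference holds 56 CpGs for Grm3 and 38 for Grm5, yet only 2 CCGG sites each, against 5 to 13 CCGG sites at the other members. The statements on promoters therefore concern Grm2, Grm4, Grm6, Grm7 and Grm8.

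Mean methylation over all sites of a gene ranged from 5.59% in Grm2 to 84.4% in Grm3. The order of the means over the 6 libraries was Grm3 (84.4%), Grm5 (45.8%), Grm4 (25.9%), Grm6 (25.7%), Grm8 (23.1%), Grm7 (15.7%) and Grm2 (5.59%). The library ranges of Grm4 and Grm6 and of Grm6 and Grm8 overlapped, whereas those of the other neighbours in this order did not. Grm3 and Grm5 had body sites alone, whereas 18 of 21 Grm2 sites were promoter sites, and the part of this in the order was not tested.

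Promoters were almost unmethylated and bodies were not. Promoter means over the 6 libraries were 1.46% ± 0.563 (SD, n = 6) in Grm7, 1.70% ± 0.627 in Grm2, 2.24% ± 2.29 in Grm6, 2.85% ± 0.821 in Grm8 and 7.76% ± 1.91 in Grm4, beside a median of 2.26% over the promoters of 19240 genes with at least 3 promoter sites. Only the range of Grm4 did not overlap that of its neighbour in this order. Body means were 28.9% ± 13.2 (SD, n = 6) in Grm2, 42.2% ± 2.95 in Grm4, 45.8% ± 2.02 in Grm5, 59.6% ± 3.23 in Grm7, 68.1% ± 4.35 in Grm8, 79.2% ± 5.63 in Grm6 and 84.4% ± 7.20 in Grm3, beside a median of 52.7% over 12285 genes. Of these neighbours only Grm5 and Grm7 did not overlap. In all 5 genes with both parts the body exceeded the promoter in 6 of 6 libraries, by 27.2 percentage points in Grm2, 34.4 in Grm4, 58.2 in Grm7, 65.3 in Grm8 and 77.0 in Grm6. Grm2 rests on 3 body sites within 23 bp of a coding exon, which makes its gap the least certain (SD 12.6).

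**Figure D1:**
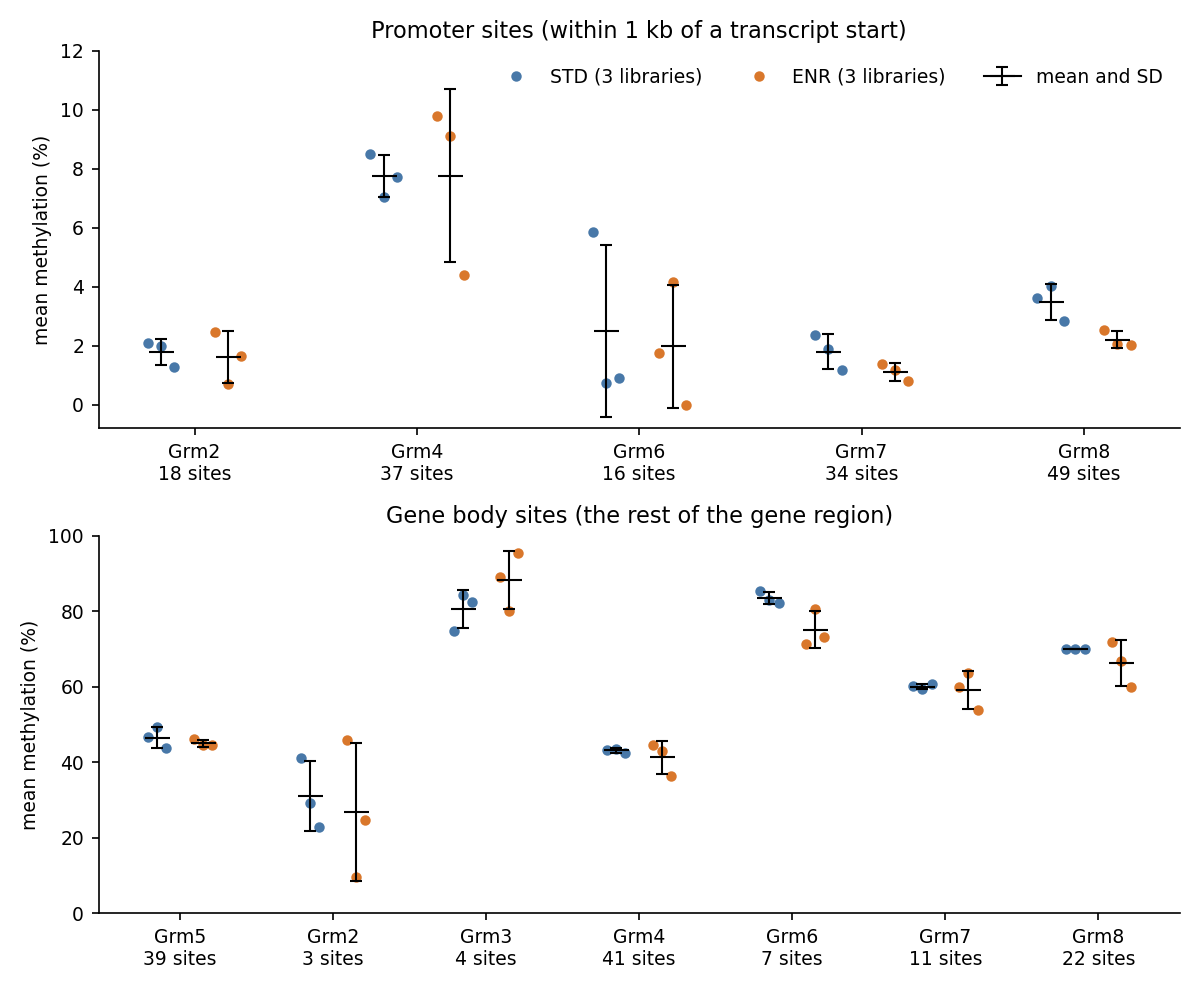
Mean methylation in percent of the promoter sites (upper panel, 5 genes) and gene body sites (lower panel, 7 genes) in each STD and ENR library, with the group mean and SD as black lines (n = 3). Promoter means sit below 10% in every library while bodies range up to 95.4%, and the STD and ENR points overlap except in the Grm8 promoter and the Grm6 body.

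Methylation rose with distance from a transcript start up to 20000 bp. The 77 sites within 250 bp of a start averaged 2.18%, the 51 sites from 250 to 500 bp 2.77% and the 26 sites from 500 to 1000 bp 8.99%. Between 1000 and 2000 bp the mean was 23.1% (22 sites), between 2000 and 5000 bp 52.5% (11 sites), and between 5000 and 20000 bp 82.7% (13 sites). The mean was 56.2% (38 sites) up to 100000 bp and 54.6% (43 sites) farther away, where 15 of the 43 sites are those of 1 Grm5 coding exon cluster and the other 28 averaged 70.9%. Over all sites of the table the last 3 classes averaged 52.4%, 59.8% and 73.0%. For these the distance was taken to the nearest start of any gene, for member sites to the starts of their own gene. Levels were mixed at these distances, and of the 81 sites over 20000 bp from a start 26 averaged under 25%, 34 over 75% and 21 in between. The libraries ranged from 1.86% to 2.60% in the closest class and from 73.1% to 89.9% between 5000 and 20000 bp, whereas the 2 classes closest to a start overlapped. Across the 281 sites methylation was lower where the surrounding 201 bp were richer in G and C (Spearman rho -0.72) or had a higher observed to expected CpG ratio (rho -0.63). Within the 127 body sites alone the rho with GC content was -0.33. Sites of a cluster share reads and sequence, so these values describe the sites and carry no p.

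**Figure D2:**
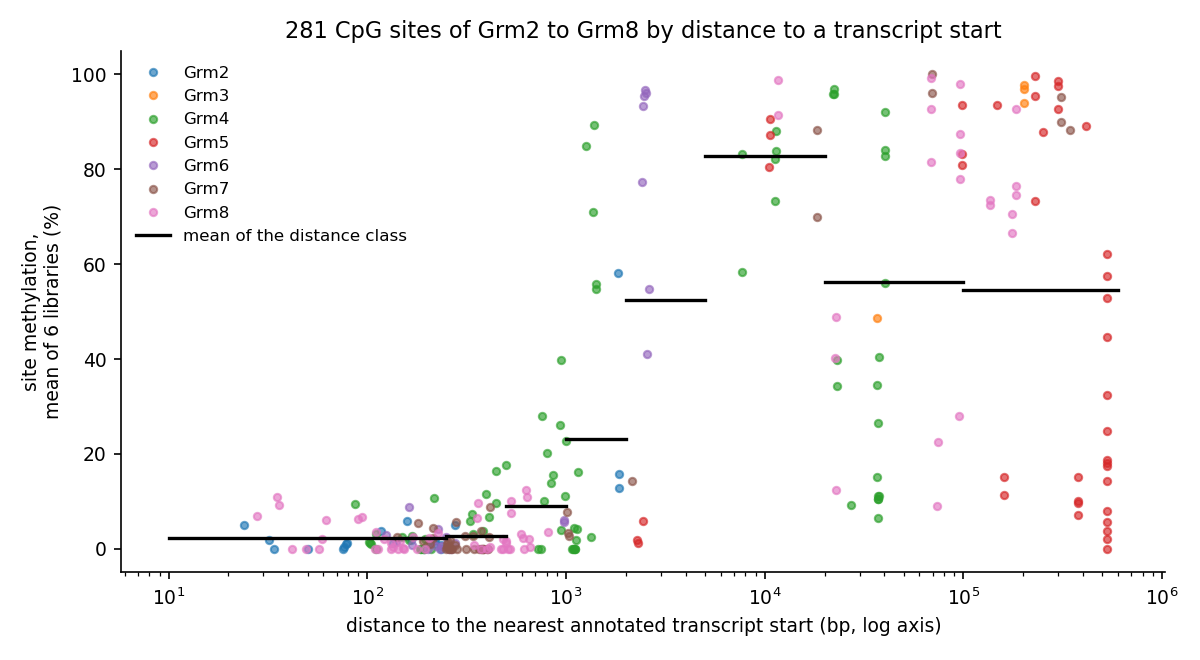
Methylation of each of the 281 sites (mean of 6 libraries, percent) against distance in bp to the nearest annotated transcript start of its gene. The axis is logarithmic, sites are coloured by gene, and black lines give the mean of each distance class. Sites close to a start lie near 0, the class means climb to 82.7% between 5000 and 20000 bp, and farther sites range from 0 to near 100%.

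Sites less than 500 bp apart were joined into 49 clusters. Of these, 31 clusters of at least 2 sites lay wholly in gene bodies. Among them 15 averaged over 75%, 7 averaged under 25% and 9 lay between. Among 32029 clusters of at least 2 sites in genes and over 1 kb from every transcript start, 24.6% averaged under 25% and 40.9% over 75%. Member clusters had to be over 1 kb from the starts of their own gene alone. A share of 22.6% low clusters among the receptor genes was near this background. The 7 low clusters lay in Grm4 (1), Grm5 (4), Grm7 (1) and Grm8 (1). Their median GC content of 45.8% and CpG ratio of 0.35 were close to the 48.01% and 0.33 of the 15 high clusters, so unlike promoters they were not CpG-rich as a set.

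Grm5, the group I receptor that drives phospholipase C signalling and synaptic plasticity at hippocampal synapses, lies at chr7:87584168-88134907 (mm10, plus strand, ENSMUSG00000049583.15). Its 39 sites formed 11 clusters along the gene. Intronic sites from 29372 bp to 433768 bp past the gene start were mostly highly methylated, between 85.9% and 96.4% in 7 clusters. Inside this methylated body, 2 intronic clusters were low in every mouse. The cluster 178236 bp past the gene start (2 sites) averaged 13.3%, with library values from 7.31% to 20.02%. The cluster at chr7:87981706-87981803 (4 sites) averaged 10.5% and read 7.65%, 22.4% and 14.8% in STD and 9.73%, 5.001% and 3.55% in ENR. These values overlapped, since the ENR library with 9.73% exceeded the STD library with 7.65%. A further low cluster of 3 sites, at 2.96%, lay 2500 bp past the gene start in a noncoding exon.

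The following stretches of the plus strand are shown because they set a methylated and a weakly methylated intronic stretch of Grm5, and the coding exon described next, side by side. They were chosen after their values were seen, and capitals mark the measured CpGs. The first, chr7:87902575-87902609, averaged 96.4%, and the second, chr7:87981694-87981815, averaged 10.5%. The third, chr7:88130554-88130692, is the 3′ side of the cluster in the last coding exon.
Grm5 methylated intron: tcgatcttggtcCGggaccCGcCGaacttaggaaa
Grm5 low intron: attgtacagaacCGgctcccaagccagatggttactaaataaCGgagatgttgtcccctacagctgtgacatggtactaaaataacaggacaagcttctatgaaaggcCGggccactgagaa
Grm5 coding exon: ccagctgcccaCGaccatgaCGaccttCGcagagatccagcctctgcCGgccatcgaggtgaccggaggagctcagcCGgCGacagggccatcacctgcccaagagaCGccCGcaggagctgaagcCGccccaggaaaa

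The last coding exon of Grm5, 545859 bp and more from the gene start, held 15 sites within 654 bp at chr7:88130027-88130680. Their mean was 24.2% ± 1.96 in STD and 24.1% ± 3.18 in ENR (SD, n = 3), a difference of -0.0204 percentage points that was smaller than either SD. Methylation varied along the exon. The first site, at 88130027, averaged 24.8%, and the next 4 averaged 5.58%, 8.02%, 14.2% and 2.08%. The site at 88130227 read 0 in all 6 libraries, and the site at 88130566 averaged 3.71%. At 88130602 the mean was 18.1%, at 88130634 it was 52.8%, and at 88130680 it was 62.1%. The last site read 66.7%, 66.7% and 56.0% in STD and 60%, 50% and 73.3% in ENR. The step from 3.71% to 52.8% thus took place between 88130566 and 88130634, inside the coding sequence, and both groups showed it. In the printed coding exon stretch 11 CpGs are present and 9 of them were measured.

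**Figure D3:**
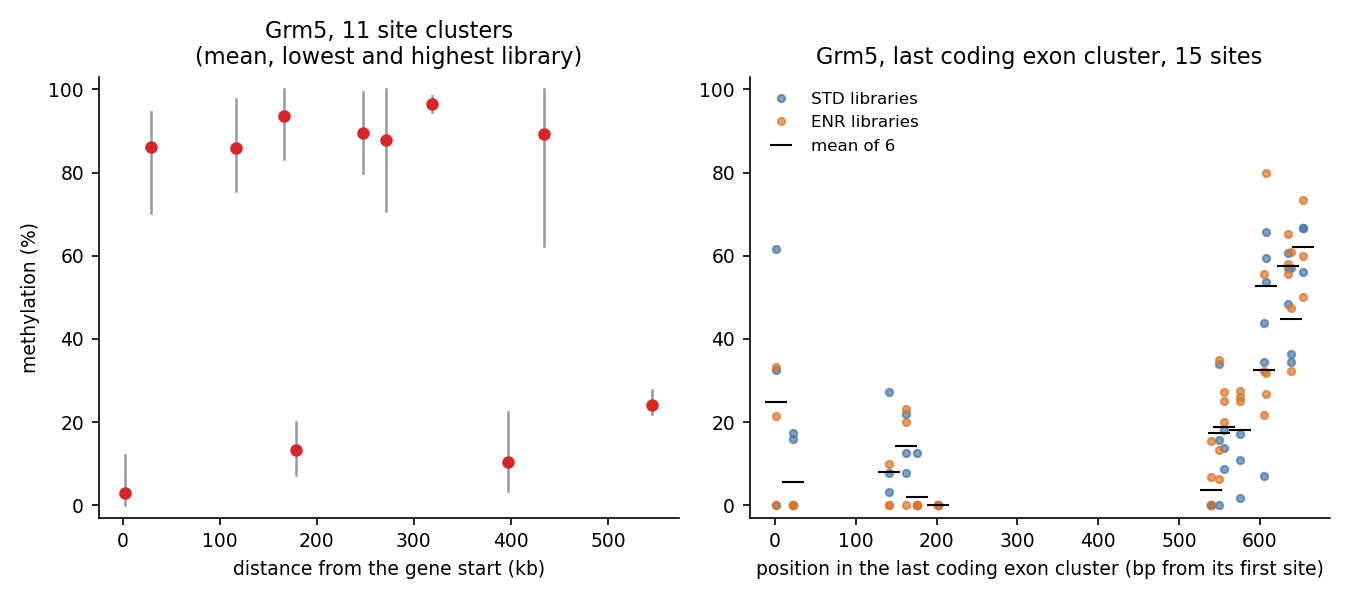
Left, mean methylation in percent of the 11 Grm5 site clusters against distance from the gene start in kb, with grey lines from the lowest to the highest library. Right, the 15 sites of the last coding exon cluster by position in bp from its first site, each library as a point (STD blue, ENR orange) and the mean of 6 as a black line. On the left clusters lie either near 90% or under 25%, and on the right the site means go from 0 to 62.1%.

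Over the whole gene Grm5 had 46.6%, 49.2% and 43.7% in STD and 46.0%, 44.5% and 44.5% in ENR. The groups overlapped and differed by -1.51 percentage points (two-sided exact permutation test, p = 0.6, where 3 against 3 allows no p under 0.1). Leaving out STD replicate 2 gave -0.147 points and leaving out STD replicate 3 gave -2.91, whereas the median over sites in place of the mean gave -5.18. The Grm5 site with the largest group difference was an intronic CpG at chr7:88017936. It read 95.4%, 100% and 100% in STD and 83.8%, 62.2% and 93.8% in ENR, a difference of -18.5 points without overlap. Its limma p was 0.0493 before and 0.852 after adjustment over 615152 sites that varied, and without ENR replicate 2 the difference was -9.67 points. The sequence around it, chr7:88017906-88017966, holds that single CpG.
Grm5 site: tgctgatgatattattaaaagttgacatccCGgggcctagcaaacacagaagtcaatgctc

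Grm2, the group II receptor of presynaptic terminals that is abundant in dentate granule cells and their mossy fibres, lies at chr9:106643095-106656082 (minus strand, ENSMUSG00000023192.12). Its 18 promoter sites spanned 395 bp across the gene start. They averaged 2.09%, 2.003% and 1.29% in STD and 2.46%, 0.712% and 1.67% in ENR, and the groups overlapped. The most methylated of them reached a mean of 5.94%. All promoter sites of Grm2 were thus close to 0 in both housing conditions. The 165 bp upstream stretch chr9:106656205-106656369, chosen after the values were seen and printed on the plus strand, shows 7 measured CpGs (9 sites over both strands) in a sequence of 68.5% GC that averaged 1.94%.
Grm2 upstream: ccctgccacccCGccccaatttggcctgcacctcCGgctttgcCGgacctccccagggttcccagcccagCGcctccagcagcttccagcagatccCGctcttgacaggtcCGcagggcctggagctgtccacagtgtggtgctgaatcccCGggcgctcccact

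The 3 body sites of Grm2 lay in a coding exon and differed widely between mice, from 9.52% to 45.9%. Around them, at chr9:106654218-106654278, 3 CpGs follow each other within a sequence of 67.2% GC. The last of the 3 on the plus strand, at 106654248, was the Grm2 site with the largest group difference. It read 92.3%, 36.4% and 68.8% in STD and 62.2%, 28.6% and 60.9% in ENR, and the groups overlapped (difference -15.3 points, and -2.002 without STD replicate 1).
Grm2 site: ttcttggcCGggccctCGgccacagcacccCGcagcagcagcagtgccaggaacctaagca

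Grm3, the other group II receptor, found in neurons and prominently in astrocytes, lies at chr5:9485541-9725170 (minus strand, ENSMUSG00000003974.6). It had 4 sites, all intronic. The 3 sites at chr5:9522331-9522389 were nearly fully methylated, with 90.8%, 90.1% and 100% in STD and 99.4%, 100% and 97.2% in ENR. The remaining site, at chr5:9688269, read 26.8%, 67.1% and 29.8% in STD and 58.5%, 20% and 90% in ENR. This CpG varied far more between mice of a group than the other 3 did. Over the gene ENR was 7.65 points higher (88.2% ± 7.75 against 80.5% ± 5.05, SD, n = 3, exact permutation p = 0.3), and Grm3 was the only member whose mean was higher in ENR. Without ENR replicate 3 the difference fell to 4.04 points.
Grm3 site (chr5:9688239-9688299): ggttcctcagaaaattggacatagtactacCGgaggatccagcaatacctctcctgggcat

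Grm4, a presynaptic group III receptor best known from the parallel fibres of the cerebellum, lies at chr17:27422387-27521403 (minus strand, ENSMUSG00000063239.17). It has several annotated start regions, and 3 of them were measured. The start region farthest upstream (4 sites) averaged 5.02%. The starts 7677 to 7997 bp downstream (25 sites) averaged 4.34%. The starts 18079 to 18099 bp downstream (8 sites), which belong to protein-coding transcripts, averaged 19.8%, with library values from 9.49% to 33.5%. The third start region thus had the highest level of the 3, but its 8 sites lay 760 to 985 bp from a start. Those of the first region lay 327 to 382 bp away and those of the second 87 to 776 bp. The part of distance in this order was not tested. Around the gene start alone the 4 sites averaged 5.93% ± 2.705 in STD and 4.10% ± 3.31 in ENR (SD, n = 3).

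The Grm4 body held high, intermediate and low stretches. An intronic cluster of 9 sites at chr17:27435553-27436176, at least 85227 bp past the gene start, averaged 18.5%, whereas its neighbour of 4 sites at chr17:27432902-27432959 averaged 78.7%. Within the low cluster 3 of 9 sites had groups that did not overlap (beside 3.99% of all sites), all lower in ENR, by 6.35 to 14.0 points. The cluster as a whole read 18.7%, 22.4% and 19.8% in STD and 14.6%, 22.2% and 13.3% in ENR, so that STD and ENR overlapped through ENR replicate 2. Its difference of -3.56 points was smaller than the SD of 4.80 in ENR.

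The Grm4 tile with the lowest p lay in an intron 16661 to 16813 bp past the gene start, between the second and the third start region. Its 5 sites at chr17:27504590-27504742 read 86.3%, 73.7% and 81.5% in STD and 62.1%, 70.7% and 52.8% in ENR. The groups did not overlap and differed by -18.6 percentage points (limma p of 0.0219 before and 1 after adjustment over 72222 tiles of 1 kb). Of all tiles 0.0% were called and 3.98% had an unadjusted p under 0.05. Of its sites, that at 27504742 read 76.6%, 68.8% and 68.0% in STD and 56.0%, 60.4% and 5.56% in ENR, a difference of -30.5 points. Without ENR replicate 3 the site differed by -12.9 points and the tile by -14.1. Over the whole gene Grm4 differed by -0.993 points (26.4% ± 0.413 against 25.4% ± 3.66, SD, n = 3, exact permutation p = 1), and by 1.099 without ENR replicate 3.
Grm4 site (chr17:27504712-27504772): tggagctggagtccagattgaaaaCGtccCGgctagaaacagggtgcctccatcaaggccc

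Grm6, the group III receptor through which ON bipolar cells of the retina sense glutamate, lies at chr11:50850685-50866208 (plus strand, ENSMUSG00000000617.14). Its methylation climbed over a short distance. The 14 sites 425 to 576 bp past the gene start averaged 1.73%, the 2 sites at 3534 to 3592 bp averaged 47.9%, and the 5 sites at 8546 to 8672 bp averaged 91.8%. Its promoter was close to 0 in this tissue, as those of Grm2, Grm7 and Grm8 were. The 7 body sites read 85.2%, 82.9% and 82.2% in STD and 71.3%, 80.6% and 73.2% in ENR. The groups did not overlap, and the difference was -8.37 points (SE 3.36, limma p = 0.0432, adjusted p = 1.00 over 12278 gene bodies, exact permutation p = 0.1, the smallest possible).

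The gap between body and promoter was smaller in ENR in all 5 genes with both parts, as in 57.9% of 11134 such genes in the table. It differed by -7.85 points in Grm6 (73.1 against 80.9 points, exact permutation p = 0.1) and by -1.90 in Grm4 (33.5 against 35.4 points, exact permutation p = 0.1), where the groups did not overlap. In Grm2 it differed by -4.20, in Grm8 by -2.51 and in Grm7 by -0.158 points, with groups that overlapped. Gaps of the groups did not overlap in 8.01% of those genes. Single libraries set the direction in 3 of the 5 genes, as shown by leaving them out, which was added after seeing the data. The difference became 3.94 points in Grm2 without ENR replicate 2 and 0.626 without STD replicate 1. Without ENR replicate 3 it became 2.37 in Grm7 and 0.559 in Grm8, and without STD replicate 3 it became 0.457 in Grm7. In Grm4 it fell to -1.12 without ENR replicate 3, and in Grm6 it stayed between -9.54 and -6.11. With 5 such comparisons and a smallest possible p of 0.1 neither can pass 0.05. Of the 7 gene bodies, Grm6 was the only one whose groups did not overlap, and 7.6% of all gene bodies did not overlap either. The Grm6 difference was larger at the 2 sites at 3534 to 3592 bp (57.5% ± 17.9 against 38.3% ± 13), where the groups overlapped, than at the 5 distal sites (93.8% ± 5.40 against 89.8% ± 6.73, SD, n = 3). The site with the largest difference, chr11:50859231, read 80%, 84.2% and 100% in STD and 75.5%, 82.6% and 41.4% in ENR, and without ENR replicate 3 its difference of -21.6 points shrank to -9.01.
Grm6 site (chr11:50859201-50859261): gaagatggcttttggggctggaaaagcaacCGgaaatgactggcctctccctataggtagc

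Grm7, the group III receptor of the presynaptic active zone, spans 921650 bp at chr6:110645581-111567230 (plus strand, ENSMUSG00000056755.13). Its 34 promoter sites reached from 215 bp upstream to 417 bp downstream of the gene start and averaged 2.35%, 1.88% and 1.17% in STD and 1.37%, 1.18% and 0.791% in ENR. The groups overlapped (difference -0.688 points, exact permutation p = 0.3, and -0.413 without STD replicate 1). Of the 45 Grm7 sites, 21 also lay in the antisense gene Gm20387, so the values there belong to both genes, and 15 sites read 0 in every library. Past the promoter, 3 sites at 1012 to 1039 bp averaged 4.63%, a single site at 2145 bp 14.4%, and the 4 clusters from 18369 bp on between 79.1% and 98.0%.

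The Grm7 site with the largest group difference and the Grm7 tile with the lowest p were above 0 in STD mice only. The CpG at chr6:110645998, in a coding exon, read 46.7%, 0 and 5.80% in STD and 0 in all ENR libraries, and without STD replicate 1 its difference of -17.5 points was -2.90. The 3 sites at 1012 to 1039 bp read 0, 19.5% and 8.33% in STD and 0 in all ENR libraries. Without STD replicate 2 their difference of -9.27 points was -4.17. The groups overlapped in both, since a STD library also read 0. The named site lies in a run of 4 measured CpGs within 61 bp that hold 6 CpGs.
Grm7 site (chr6:110645968-110646028): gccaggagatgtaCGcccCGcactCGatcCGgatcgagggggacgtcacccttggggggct

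Grm8, a presynaptic group III receptor known from the lateral perforant path that enters the dentate gyrus, lies at chr6:27275119-28135178 (minus strand, ENSMUSG00000024211.15). It was the only 1 of 5 promoters whose groups did not overlap, beside 9.46% of 19204 promoters with such groups in the whole table. Its 49 promoter sites read 3.62%, 4.01% and 2.83% in STD and 2.54%, 2.05% and 2.01% in ENR. The difference was -1.28 points (SE 0.565, limma p = 0.0571, adjusted p = 0.998, exact permutation p = 0.1). Around the gene start (24 sites from 616 bp upstream to 226 bp downstream) the means were 1.30% ± 0.905 in STD and 1.58% ± 0.899 in ENR (SD, n = 3), a difference of 0.280 points in the other direction with groups that overlapped. Taken within 1 kb of any start of the first start region (0 to 793 bp), which adds sites of the next cluster, 39 sites averaged 2.21% in STD and 1.605% in ENR, a difference of -0.604 points with groups that overlapped. Both promoter clusters farther into the gene had lower means in ENR. The 6 sites 2655 to 2859 bp downstream read 7.36%, 9.50% and 3.52% in STD and 2.99%, 5.98% and 2.02% in ENR, a difference of -3.13 points with groups that overlapped. The cluster between, 1155 to 2021 bp downstream, spans an annotated start at 1853 bp, with further starts at 793 and 2049 bp on either side. In that cluster the groups did not overlap.

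The 19 sites of this cluster, chr6:28133157-28134023, read 6.32%, 4.42% and 4.87% in STD and 2.98%, 2.72% and 1.89% in ENR. Every ENR library was below every STD library, and the difference was -2.68 points. In the 1 kb tile that holds 17 of these sites, chr6:28133001-28134000, the values were 4.64%, 4.79% and 5.12% in STD and 2.83%, 3.04% and 2.11% in ENR (limma p of 0.0176 before and 1 after adjustment). Leaving out each library in turn gave between -2.38 and -1.92 points for this tile. A single site at 28133859 read 22.2%, 13.8% and 16.67% in STD and 0, 7.14% and 0 in ENR. It was chosen after its values were seen, and 4 of 71 Grm8 sites (5.63%, beside 3.99% of all sites) had groups that did not overlap. Of these 2 were lower and 2 higher in ENR, and 1 of those higher in ENR lay in this cluster.

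The Grm8 body was mostly methylated. Its 22 body sites read 70.0%, 69.9% and 70.1% in STD and 71.9%, 66.8% and 59.9% in ENR, and the difference of -3.79 points fell to -0.630 without ENR replicate 3. An intronic cluster of 2 sites at chr6:28051964-28052166 averaged 15.7%, while 3 intronic sites nearby, at chr6:28057633-28057692, averaged 91.2%. The 6 libraries ranged from 5.12% to 24.4% in the former and from 79.4% to 96.9% in the latter. The CpG at chr6:27943157 showed the largest group difference of all members, -38.8 points, with 94.9%, 86.8% and 100% in STD and 90.6%, 53.2% and 21.4% in ENR. These groups overlapped, because ENR replicate 1 stayed within the STD range, and without ENR replicate 3 the difference was -22.0 points. The CpG 7 bp away, chr6:27943164, went the other way without overlap, with 88.0% in STD and 97.6% in ENR (9.57 points higher). Over all libraries the limma p of chr6:27943157, the site with the largest difference, was 0.0428 before and 0.852 after adjustment.

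The Grm8 sequences, all on the plus strand, are shown to set the unmethylated start (chr6:28135208-28135325, 1.64%), the low intronic cluster (chr6:28051952-28052178, 15.7%), the methylated cluster near it (chr6:28057621-28057704, 91.2%) and the site with the largest difference (chr6:27943127-27943187) beside each other. The first 3 were chosen after their values were seen. The low intronic stretch has 2 CpGs in 227 bp and 36.6% GC, against 15 CpGs in 118 bp and 69.5% GC upstream of the start. Low methylation was thus measured both in CpG-rich and in CpG-poor sequence of the same gene.
Grm8 upstream: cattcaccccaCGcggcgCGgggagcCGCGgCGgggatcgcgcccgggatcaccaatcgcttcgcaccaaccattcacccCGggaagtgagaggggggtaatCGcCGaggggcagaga
Grm8 low intron: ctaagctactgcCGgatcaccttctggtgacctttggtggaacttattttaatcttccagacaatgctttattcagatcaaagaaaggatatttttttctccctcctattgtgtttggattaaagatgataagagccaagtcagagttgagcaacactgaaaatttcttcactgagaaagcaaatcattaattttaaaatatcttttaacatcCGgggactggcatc
Grm8 methylated intron: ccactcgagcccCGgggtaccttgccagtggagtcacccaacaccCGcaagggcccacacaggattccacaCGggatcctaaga
Grm8 site: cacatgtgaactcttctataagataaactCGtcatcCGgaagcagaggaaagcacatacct

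**Figure D4:**
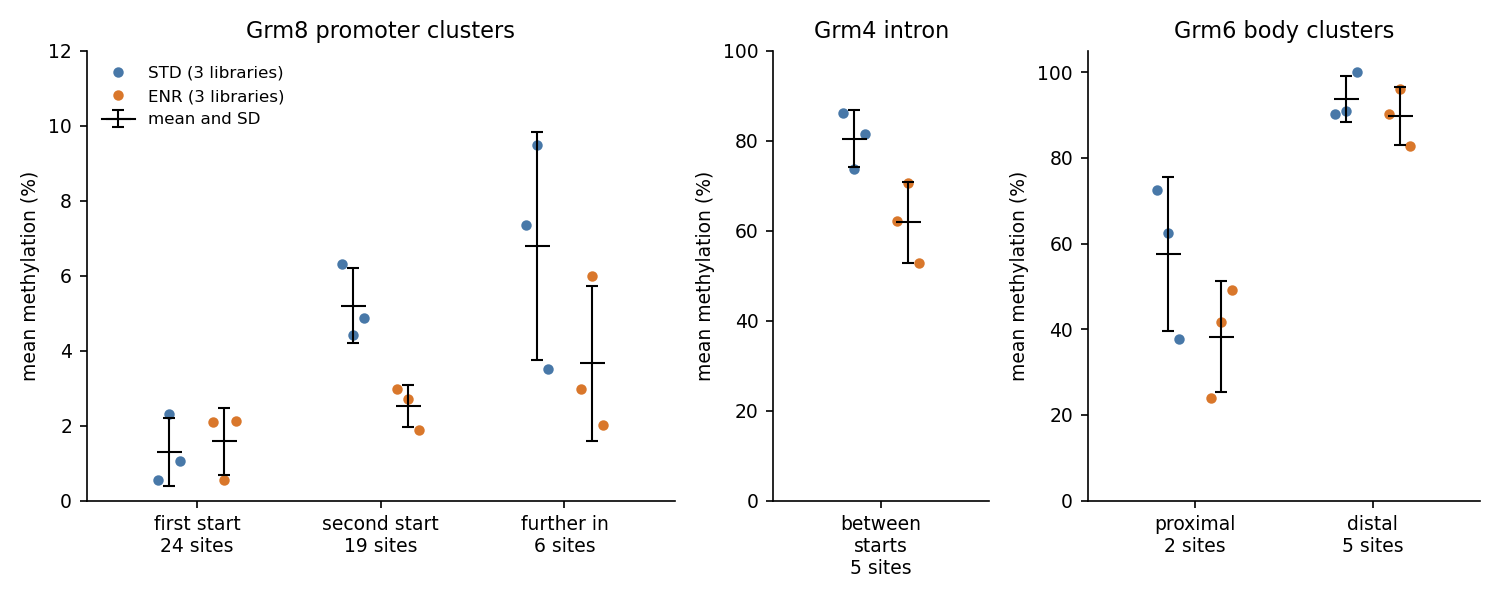
Mean methylation in percent of the Grm8 promoter clusters (left, from the gene start inwards), the Grm4 intron cluster (middle) and the Grm6 body clusters (right) in each STD and ENR library, with group mean and SD (n = 3). The ENR points lie below all STD points in the second Grm8 cluster and in the Grm4 cluster, and overlap with them in the others.

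Across the members as a set, 6 of 7 genes had a lower mean in ENR, which was also the case for 57.6% of 22934 genes tested. The STD and ENR ranges overlapped at whole-gene level in all 7, whereas they did not in 8.47% of all genes. In limma 0 of the 7 genes passed an adjusted p of 0.05 and 0 had an unadjusted p under 0.05, and of all genes 0.0% were called and 3.86% had such an unadjusted p. For promoters 0 of 5 and for bodies 0 of 7 were called, and the Grm6 body was the only one under an unadjusted p of 0.05, as were 3.38% of all bodies and 4.43% of all promoters. Over the 281 sites ENR replicate 3 had the lowest mean (22.8%, the others 25.4% to 26.7%), and it was also the lowest over all sites of the table (21.3%, the others 22.5% to 24.3%). STD replicate 3 was the lowest STD library in both (25.4% and 22.5%). The part of these libraries in the differences was not tested beyond the values without them.

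Group means were more than 25 percentage points apart at 6 of the 281 sites (2.14%, beside 1.94% of all sites). All 6 were intronic and lay in Grm4 (3) and Grm8 (3). The share was near the background, and 5 of the 6 were lower and 1 higher in ENR (beside 1.23% and 0.706% of all sites). The site higher in ENR, chr17:27502364 in the third Grm4 start region, read 34.0%, 14.1% and 33.3% in STD and 75%, 37.5% and 44.8% in ENR. At 2 of the 6, both in Grm4, the groups also did not overlap, beside 0.81% of all sites. At 17 of the 281 sites every ENR value lay on the same side of all STD values (6.05%, beside 3.99% of all sites), and no site of the table passed the adjusted test (0 of 615152, 0.0%, with 2.68% under an unadjusted p of 0.05).

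Sites of intermediate methylation varied most between mice. The median SD within a group was 2.64 points at the 165 member sites averaging under 10%, 21.2 points at the 33 sites from 25% to 75% and 5.12 points at the 28 sites above 90%. A difference of 25 points at an intermediate site is thus close to the spread between mice. At 20 CpGs both strands were measured, and the mean difference between strands was 1.57 to 4.77 points depending on the library, with a largest single value of 40.9 points.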

How the data were processed

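The deposited table gives methylation in percent of reads per CpG site and library. Per the labels and the study's methods, the authors trimmed reads, removed 2 further bases after adapter, aligned to mm10, and kept cytosines with at least 10 reads and below the 99.9th percentile of coverage. The submitters' processing notes name Trim Galore 0.4.0, cutadapt 1.8.1, Bismark 0.16.1 and methylKit 1.5.2. Read numbers per site were not used here, so the depth behind a percentage is unknown and no counting interval is given. Tissue identity cannot be checked in such data.

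Sites were assigned to genes with GENCODE M21, and sequences were read from GRCm38. Gene, promoter, body and 1 kb tile means weighed sites equally and needed at least 3 sites for a test. Differences (ENR minus STD) were fitted over all genes, tiles or varying sites with limma 3.58.1 (R 4.3.3, variance trend, Benjamini-Hochberg adjustment), tested on simulated data, with two-sided exact permutation tests over 20 regroupings beside them. The members and lists were chosen with earlier results of these data known. Named sites were, per gene, the site with the lowest p among those over 25 points apart without overlap, or else the largest difference, and named tiles had the lowest p. Named partners were the 4 with the lowest p (a further item named by the rule is not reported here), and genes of like pattern had the highest Pearson r over the 6 libraries among genes with at least 20 sites. Alternatives left out each library, changed the promoter definition, the limit, the scale or the normalization, or blocked on replicate number. STD and ENR deviations with the same number correlated at 0.0602, 0.0348 and 0.135. Those with different numbers correlated at -0.0892 to 0.0448. All were low, so the numbers were not taken to pair mice.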

Additional observations from a re-analysis of the deposited data

How the results depend on the processing

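The 17 distinct group differences (whole gene, promoter, body) had 177 alternative values, not counting settings that change only the test. Of these 153 kept their direction, 23 reversed and 1 was 0 (the Grm7 median over sites). No adjusted p of these differences was under 0.05 in any fit (smallest 0.894). For 7 of the 17 every alternative kept the direction. Single libraries decided several signs. Leaving out each library in turn gave -2.52 to 0.829 points for the Grm2 gene, -2.30 to 1.099 for Grm4 and -1.31 to 0.0529 for Grm7. Promoters ranged from -0.608 to 0.267 (Grm2), from -1.003 to 1.69 (Grm4) and from -1.62 to 1.16 (Grm6), and bodies from -14.0 to 4.20 (Grm2), from -3.48 to 0.568 (Grm4) and from -3.11 to 1.84 (Grm7). The positive ends came without ENR replicate 2 for Grm2, without ENR replicate 3 for Grm4 and Grm7 and without STD replicate 1 for Grm6. Named sites and tiles were recomputed as alternatives chosen after seeing the data. There the Grm3 site ranged from -1.995 (without ENR replicate 3) to 33.0 points and the Grm2 tile from -0.788 to 0.00469 (0.0801 with quantile normalization). Without replicate 3 of both groups Grm4 differed by 0.918 over the gene and 0.240 in the body, and the Grm7 body by 2.15. With the median over sites Grm2 differed by 0.208, Grm4 by -2.43, Grm5 by -5.18 and Grm8 by -0.807. Quantile normalization reversed the Grm2 promoter (0.309) and the Grm7 body (0.375).

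A promoter counted only within 1 kb of the gene start reversed the Grm4 promoter (-1.83) and the Grm8 promoter (0.280), since 33 Grm4 and 25 Grm8 sites then left the promoter. The body minus promoter gap became 22.0 points in Grm4 and 32.7 in Grm8 and stayed above 0. The 6 sites over 25 points became 10 with the limit set to 20 and 0 with 40, 2 when groups also had to be apart, and 12 without replicate 3 of both groups. Leaving out single libraries gave 8 to 12, the 12 without ENR replicate 2. The cause was not tested. On the arcsine scale 1 of 19204 promoters was called (smallest adjusted p 0.0225), which was not a member, and 0 in every other fit. With the replicate block 0 of 22934 genes were called (1152 under an unadjusted p of 0.05, beside 886 without it), and the Grm8 promoter had a p of 0.0893 (adjusted 0.944) and the Grm6 body 0.0609 (adjusted 0.948). A higher coverage minimum and a logistic regression on reads were not run, because the percentages come without read numbers. The unknown depth per site and 3 mice per group limit what could be detected.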

Other observations

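The signalling partners of these receptors were measured at 40 of 40 listed genes (G protein subunits, effectors, scaffolds, synaptic organisers of the receptors and glutamate transporters). Of these, 27 had a lower and 13 a higher mean in ENR, with a median difference of -0.263 percentage points beside -0.192 over all genes. None was called by limma, and 1 had an unadjusted p under 0.05 (beside 3.86% of all genes). This was Gnai3, an inhibitory G protein subunit, with 2.94%, 1.96% and 2.77% in STD and 0.918%, 1.71% and 1.62% in ENR (difference -1.14 points, limma p of 0.0354 before and 1.00 after adjustment over all genes). Groups did not overlap at 4 partners, beside 8.47% of all genes. These were Gnai3, the adenylyl cyclase Adcy8 (-1.54 points) and the astrocytic glutamate transporter Slc1a3 (-2.46 points), all lower in ENR, and the scaffold Homer3 (0.621 points), higher in ENR. The last 3 were named after their values were seen.

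Nyx, the nyctalopin of the ON bipolar synapse where Grm6 acts, differed by -8.07 points, the postsynaptic scaffold Homer2, which binds Grm5, by -2.996 points, and Gnai1 by -0.848 points, with groups that overlapped in each.

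Over the 6 libraries and 14330 genes with at least 20 sites, the whole-gene pattern closest to each member was that of Clta for Grm2 (Pearson r 0.99), Mir7654 for Grm3 (r 0.97), Socs7 for Grm4 (r 1.00), Rnf6 for Grm5 (r 0.99), Gm12766 for Grm6 (r 0.99), Epas1 for Grm7 (r 1.00) and Hdgfl3 for Grm8 (r 1.00). Between 7 (Grm3) and 201 (Grm4) genes reached an r over 0.95. The values of all genes come from the same 6 libraries, so the likeness is a description and carries no p.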
